A study of Mus musculus with 6 samples.

Results

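CTBP2 was followed here at 33 sites around the genes of the interferon regulatory factors Irf1 and Irf8, out of 62236 sites measured in the study. The members were chosen by position only, as all sites whose centre lay between 53.62 and 53.70 Mb of chromosome 11 (11 sites, Irf1) or between 121.40 and 121.60 Mb of chromosome 8 (22 sites, Irf8). Chromatin immunoprecipitation with an antibody to CTBP2, followed by sequencing, was done in macrophages grown in culture from bone marrow of male wildtype C57BL6/N mice aged 6 to 12 weeks. Cells received vehicle (PBS, 3 libraries) or LPS at 100 ng/ml (lipopolysaccharide, which macrophages sense as a sign of bacteria, 3 libraries) for 3 h. All groups shared the genotype, the differentiation medium and the antibody lot. Replicates are numbered 1 to 3 in each group, and nothing in the labels ties them to separate animals or cultures, so p-values cover the spread of these libraries alone, and that spread may be technical. Whether marrow was pooled is not stated in the labels, no input library was analysed, and macrophage markers could not be checked because expression was not measured.

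CTBP2 is a co-repressor that does not read DNA by itself: transcription factors with a CtBP-binding motif bring it to chromatin together with histone-modifying enzymes. Irf1 and Irf8 encode transcription factors of the same family that bind interferon response elements. Irf1 is a fast response gene, induced in macrophages by interferon and by LPS through STAT and NF-kB factors. Irf8 is a lineage factor of monocytes, macrophages and dendritic cells, expressed before any stimulus, which acts with the ETS factor PU.1, and enhancers of it are known on both sides of the gene.

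Positions are printed as deposited and were taken as GRCm39. The gene names in the table follow the older GRCm38 assembly, and the table names all 11 sites of the first window Rad50 and all 22 of the second Fbxo31. Gene starts were therefore placed by an offset measured within the data: it put 24 of 48 other gene starts around Irf1 within 500 bp of a site centre (13 at the next best offset) and 21 of 61 around Irf8 (13 at the next best). Distances below are from the placed start, negative on the upstream side. Each library's values were divided by the library's median and brought to a common scale, on which the median site had 48.3 in vehicle and 48.2 in LPS. Sets of 3 values are given in the order of replicates 1, 2 and 3. This scaling sets the median site equal in all libraries, so a change shared by most sites would not show.

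The Irf1 start gained CTBP2 after LPS and the Irf8 start did not pass the test. The site at the Irf1 start (chromosome 11, 53660430 to 53661430, centre at +0.112 kb) had scaled values of 149.9, 153 and 195 in vehicle, and 401, 418 and 387 in LPS. The groups did not overlap, LPS being higher, and the means were 166 ± 25.1 and 402 ± 15.7 (SD, n = 3 each). The log2 fold was 1.28 (limma adjusted p = 1.81e-09, SE 0.13), a 2.42-fold gain. The site at the Irf8 start (chromosome 8, 121462699 to 121463699, centre at +0.179 kb) began at a similar level, with 137, 131 and 174 in vehicle. It had 128, 141 and 142 in LPS, so the groups overlapped. Its means were 147 ± 23.2 and 137 ± 7.59 (SD, n = 3 each). The log2 fold was -0.09, with a 95% interval from -0.38 to 0.19 (limma adjusted p = 0.657).

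The ratio of these start sites within a library does not depend on how libraries are scaled. Irf1 over Irf8 was 1.10, 1.17 and 1.12 in vehicle, and 3.12, 2.96 and 2.73 in LPS. The starts thus carried nearly equal signal before LPS, and the Irf1 start carried the larger signal in every LPS library. The mean log2 ratio went from 0.17 ± 0.05 to 1.55 ± 0.10 after LPS (SD over 3 libraries each), a difference of 1.38. An exact two-sided permutation test gave p = 0.1, the smallest that 3 against 3 libraries allow. This ratio and 2 others given below were chosen after the values were seen, and the Benjamini-Hochberg adjusted value over the 3 was 0.1 for each.

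The RefSeq promoters of both genes are shown because the start site of one gene passed the test and that of the other did not. Each line gives the 250 bases before the gene start (GRCm38.p6, plus strand, chr11:53769764-53770013 for Irf1 and chr8:120736108-120736357 for Irf8), which by the placement lie inside the start sites. Capitals mark matches to the motifs searched on both strands.
Irf1: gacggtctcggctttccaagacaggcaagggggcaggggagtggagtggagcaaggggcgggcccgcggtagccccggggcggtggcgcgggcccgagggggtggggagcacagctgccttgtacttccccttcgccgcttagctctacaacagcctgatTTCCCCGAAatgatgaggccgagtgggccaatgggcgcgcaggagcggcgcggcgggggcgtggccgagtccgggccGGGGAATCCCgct
Irf8: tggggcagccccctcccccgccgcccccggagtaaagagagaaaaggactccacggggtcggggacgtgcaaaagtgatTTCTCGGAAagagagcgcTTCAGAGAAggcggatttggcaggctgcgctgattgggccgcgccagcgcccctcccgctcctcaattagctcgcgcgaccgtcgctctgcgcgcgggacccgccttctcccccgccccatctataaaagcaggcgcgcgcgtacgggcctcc
The Irf1 stretch holds an NF-kB motif (searched as GGGA, any 2 bases and TTCC, or GGGGA, any base and TCCC) at bases 13 to 4 before the start and a GAS element, the STAT motif (TTCNNNGAA, which reads the same on both strands), at bases 90 to 82. The Irf8 stretch holds GAS matches at bases 171 to 163 and 153 to 145 and no match to the NF-kB letters. Over 32851 RefSeq promoter stretches of this length, 1.5% held the NF-kB letters and 7.02% the GAS letters. Neither stretch matched ISRE (GAAA, any 2 bases and GAAA), ETS-IRF (GGAA, any 2 bases and GAAA), PU.1 (GAGGAAGT), AP-1 (TGANTCA) or C/EBP (TTGCNNAA), which 2.98%, 2.3%, 2.44%, 6.75% and 9.56% of stretches held. The motifs do not overlap in these stretches. RefSeq has a second start for each gene, and the 250 bases before it (chr11:53770223-53770472 for Irf1, also inside the start site by the placement, and chr8:120738389-120738638 for Irf8) matched none of these motifs. A match describes letters only, and the bound factors were not measured.

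Over the Irf1 window, 4 of 11 sites were called higher and 0 lower by limma (adjusted p under 0.05), which is 36.4% and 0%. Over all 62236 sites, 16.1% were called higher and 13.5% lower. At an unadjusted p under 0.05, 1 Irf1 site was lower, the one at +25.1 kb described below. The median log2 fold of the 11 was 0.37, against -0.02 over all sites. In 6 of the 11 every LPS library lay above every vehicle library, and in 1 below, against 21.6% and 20.6% of all sites. The summed scaled signal of the window was 776, 794 and 883 in vehicle and 1355, 1402 and 1339 in LPS. Most of that signal stood at a pair of sites, the start and one upstream of it, which held 52.7% to 57.5% of the sum in vehicle libraries and 64.0% to 68.8% in LPS libraries.

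**Figure D1:**
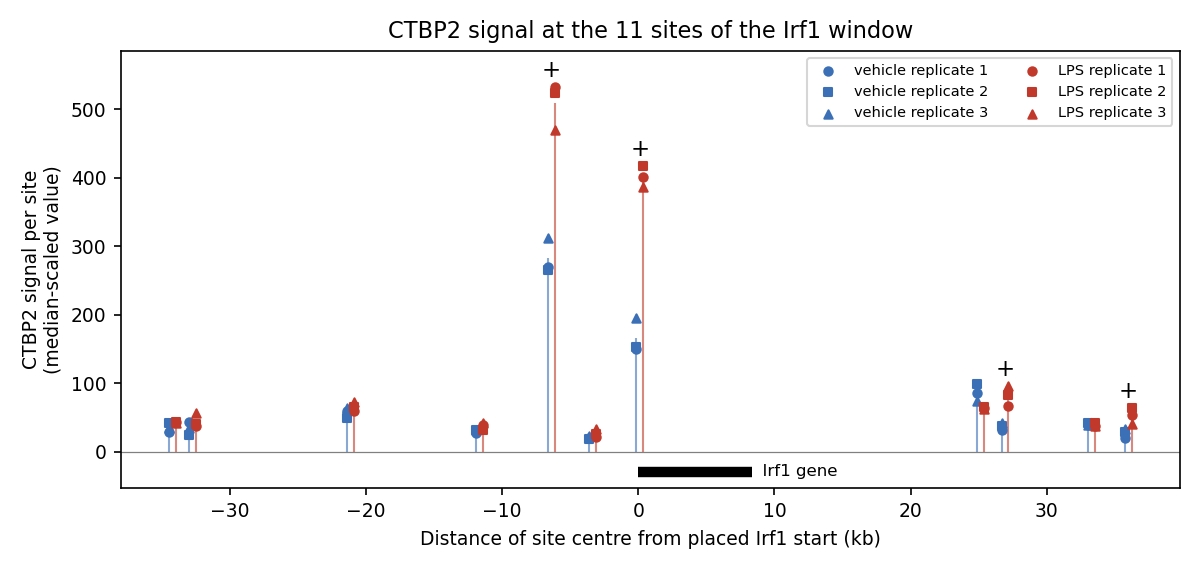
Median-scaled CTBP2 signal (y axis) at the 11 sites of the Irf1 window against the distance of the site centre from the placed Irf1 start in kb (x axis). Symbols are the 3 vehicle (blue) and 3 LPS (red) libraries, set slightly apart, lines reach to the group mean, the black bar is the gene, and + marks sites called higher by limma. The start site and the -6.38 kb site stand far above the rest, and all LPS libraries lie above all vehicle libraries there.

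The upstream site, at -6.38 kb (chromosome 11, 53653934 to 53654934), was the strongest of the window and lay over the RefSeq microRNA gene Mir7671. It had 270.1, 265 and 313 in vehicle and 532, 523 and 470.04 in LPS. The groups did not overlap, and its vehicle mean of 283 ± 26.1 (SD, n = 3) stood at the 99.8th percentile of all sites before any LPS. Its mean rose to 509 ± 33.6 (SD, n = 3), a log2 fold of 0.85 (limma adjusted p = 9.25e-07, SE 0.12). The start site, in comparison, moved from the 96.9th to the 99.9th percentile. Weak sites between and around them did not pass: the -3.39 kb site, which lies between the strong ones, had means of 20.5 and 27.0 and a log2 fold of 0.37 (95% interval -0.24 to 0.98).

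Downstream of the gene, over the long non-coding RNA gene Gm12216, neighbouring sites went different ways. The +26.9 kb site (chromosome 11, 53687257 to 53688257) had 32.1, 37.3 and 41.3 in vehicle and 67.0, 82.5 and 95.7 in LPS. All LPS libraries were above all vehicle libraries, and the log2 fold was 1.12 (limma adjusted p = 1.51e-05, SE 0.18). The +25.1 kb site beside it (53685440 to 53686440) had 85.7, 99.3 and 73.8 in vehicle and 63.5, 64.8 and 62.9 in LPS, again without overlap but lower after LPS. Its log2 fold was -0.42 (SE 0.16), and its limma adjusted p of 0.05003 missed the threshold narrowly. The +36.0 kb site (53696304 to 53697304) had 20.2, 29.3 and 33.8 in vehicle and 53.3, 63.9 and 40.3 in LPS, and rose by a log2 fold of 0.90 (limma adjusted p = 0.00223, SE 0.22). The +33.3 kb site between them had 39.3, 42.6 and 38.8 in vehicle and 37.5, 41.7 and 37.5 in LPS, with overlap of the groups.

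Of the upstream sites beyond -10 kb, none was called. The -34.2 kb site had 28.6, 41.7 and 35.0 in vehicle and 43.1, 43.5 and 42.2 in LPS. The -32.7 kb site had 42.8, 24.8 and 35.0 in vehicle and 37.5, 40.8 and 56.3 in LPS, and the -11.7 kb site had 27.4, 31.9 and 31.3 in vehicle and 39.7, 31.9 and 42.2 in LPS. Groups overlapped at -32.7 kb, while at -34.2 and -11.7 kb the LPS libraries lay narrowly above the vehicle ones. The 7 sites not called had log2 folds from -0.42 to 0.39. The member nearest the downstream edge of the window is the +36.0 kb site. The next sites outside the window, at +49.0 and +50.8 kb and also over Gm12216, had means of 19.7 and 27.7 in vehicle. In LPS they had 66.4 and 49.4, and both were called higher (log2 folds 1.73 and 0.82, limma adjusted p = 6.46e-07 and 0.00239). The fold at +49.0 kb was above that of every member. Outside the upstream edge, the -63.0 kb site had 99.1 and 109.6.

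The Irf8 window was longer than the Irf1 window, at 200 kb against 80 kb, and held more sites. Of its 22 sites 4 were called higher and 2 lower by limma, which is 18.2% and 9.09%, near the 16.1% and 13.5% of all sites. The median log2 fold was -0.06. At 4 of the 22 sites the LPS libraries were all higher than the vehicle ones, and at 5 all lower. Over all sites these shares were 21.6% and 20.6%, so the counts do not set this window apart. The summed scaled signal of the window was 1561, 1598 and 1696 in vehicle and 1719, 1679 and 1594 in LPS, so the groups overlapped.

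**Figure D2:**
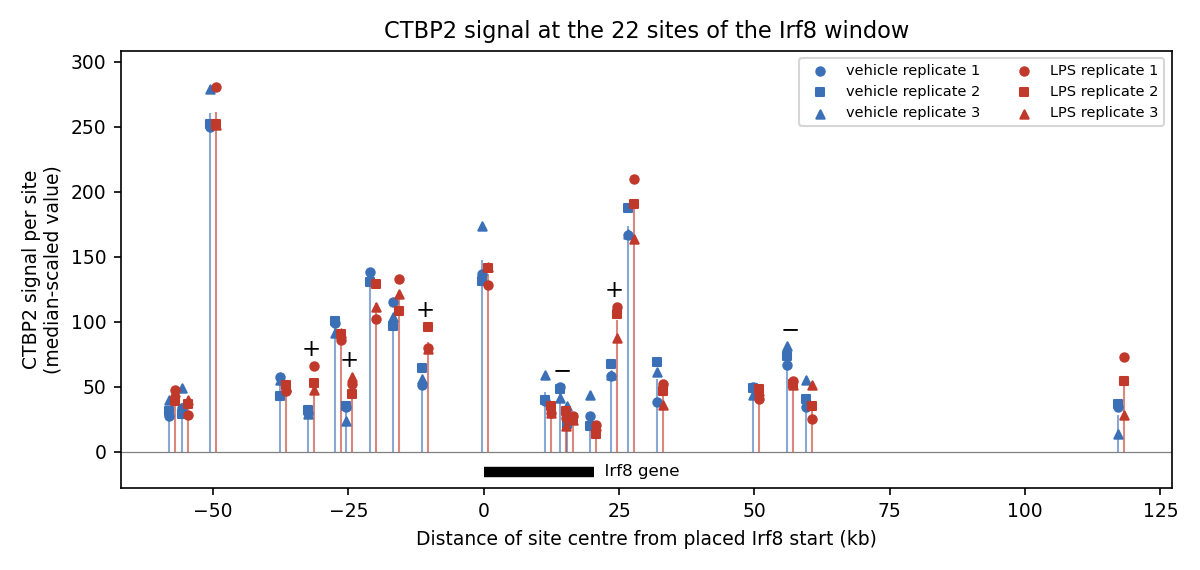
Median-scaled CTBP2 signal (y axis) at the 22 sites of the Irf8 window against the distance of the site centre from the placed Irf8 start in kb (x axis). Symbols, lines and bar are as in the plot of the Irf1 window, with + for sites called higher and − for sites called lower by limma. The strongest sites, at -50.0, +27.2 and +0.179 kb, have overlapping vehicle and LPS libraries, and the called sites are weaker ones.

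None of the strong sites of the Irf8 window, the start included, passed the test. The strongest, at -50.0 kb (chromosome 8, 121412519 to 121413519, over the long non-coding RNA gene Gm39265), had 249.9, 252 and 279 in vehicle and 280.3, 252 and 251 in LPS. The groups overlapped, and its log2 fold was 0.01 with a 95% interval from -0.24 to 0.25. The +27.2 kb site (121489692 to 121490692), past the end of the gene, had 167, 187 and 168 in vehicle and 209.9, 191 and 163 in LPS, with a log2 fold of 0.11 and an interval from -0.17 to 0.38. These 2 sites were singled out after their values were seen, because with the start they carry the most signal in vehicle. Their vehicle means of 260.3 ± 16.2 and 174 ± 11.6 (SD, n = 3 each) stood at the 99.7th and 97.5th percentiles of all sites. The -20.4 and -26.9 kb sites, with vehicle means of 134.5 and 96.8, had all LPS libraries below all vehicle libraries. Neither was called (log2 folds -0.24 and -0.11, limma adjusted p = 0.209 and 0.604). At the -16.1 kb site, with a vehicle mean of 105.3, the groups overlapped. The ratio of the strongest Irf1 site to the strongest Irf8 site was 1.08, 1.05 and 1.12 in vehicle and 1.90, 2.08 and 1.87 in LPS. Here too every LPS library lay above every vehicle library (log2 difference 0.84, exact two-sided permutation p = 0.1).

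The Irf8 sites that rose had low or middling signal before LPS. The one with the smallest adjusted p lay at +24.0 kb (chromosome 8, 121486527 to 121487527), close to the strong site at +27.2 kb. It had 58.3, 67.4 and 58.8 in vehicle and 111, 106 and 87.2 in LPS. The groups did not overlap, and the log2 fold was 0.71 (limma adjusted p = 0.00104, SE 0.16). Its ratio to the Irf8 start was 0.426, 0.513 and 0.338 in vehicle and 0.867, 0.748 and 0.616 in LPS, a log2 difference of 0.81 (exact two-sided permutation p = 0.1). For this ratio the site was picked for the highest LPS mean among the Irf8 sites already called higher. The ratio and its p-value therefore repeat that call and give no separate support. The other 3 sites called higher lay upstream. The -31.8 kb site (121430685 to 121431685) had 29.7, 31.9 and 28.8 in vehicle and 65.8, 53.2 and 47.8 in LPS, a log2 fold of 0.85 (limma adjusted p = 0.00123, SE 0.20). The -24.9 kb site (121437581 to 121438581) had 34.5, 35.5 and 23.8 in vehicle and 52.2, 44.4 and 57.2 in LPS, a log2 fold of 0.71 (limma adjusted p = 0.00904). The -10.8 kb site (121451735 to 121452735) had 51.2, 64.8 and 56.3 in vehicle and 79.4, 95.8 and 78.8 in LPS, a log2 fold of 0.55 (limma adjusted p = 0.0115). None of these 3 had overlapping groups. The call at -24.9 kb was lost without LPS replicate 3 (log2 fold 0.63), and that at -10.8 kb without vehicle replicate 1 (0.48) or LPS replicate 2 (0.46).

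Both Irf8 sites that fell lay downstream of the start. The +14.6 kb site (chromosome 8, 121477092 to 121478092), inside the Irf8 gene, had 49.98, 47.9 and 41.3 in vehicle and 26.1, 31.0 and 19.7 in LPS. All LPS libraries lay below all vehicle libraries, and the log2 fold was -0.85 (limma adjusted p = 0.00369, SE 0.22). The +56.6 kb site (121519105 to 121520105), over the non-coding RNA gene Gm33199, had 66.6, 73.6 and 81.3 in vehicle and 54.5, 52.3 and 51.6 in LPS. It fell by 0.47 on the log2 scale (limma adjusted p = 0.0315, SE 0.17), also without overlap. Leaving out any single library other than vehicle replicate 1 lost that call, at log2 folds from -0.49 to -0.40. Within the gene, the +11.9 kb site had 39.3, 39.9 and 58.8 in vehicle and 29.5, 35.5 and 30.0 in LPS, also without overlap. Its log2 fold of -0.50 did not pass (limma adjusted p = 0.0696). The +15.9 and +20.1 kb sites in the gene had log2 folds of -0.02 and -0.68 and were not called either.

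The remaining Irf8 sites were not called, and their log2 folds ranged, with the strong sites above, from -0.68 to 0.86. The highest of these was the isolated +117.7 kb site, which had 34.5, 36.4 and 13.8 in vehicle and 72.6, 54.1 and 28.1 in LPS. Its replicates were spread widely and the groups overlapped, so the 95% interval ran from -0.16 to 1.89. The -57.6 kb site, at the upstream edge, had 27.4, 31.0 and 40.0 in vehicle and 47.7, 39.0 and 46.0 in LPS, and did not pass (log2 fold 0.43, limma adjusted p = 0.119). The next sites outside the window, at -68.1 and +173.0 kb, had means of 130.8 and 13.8 in vehicle and 121.6 and 36.5 in LPS. The -68.1 kb site was not called, and the +173.0 kb site was called higher (log2 fold 1.34, limma adjusted p = 0.00299).

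**Figure D3:**
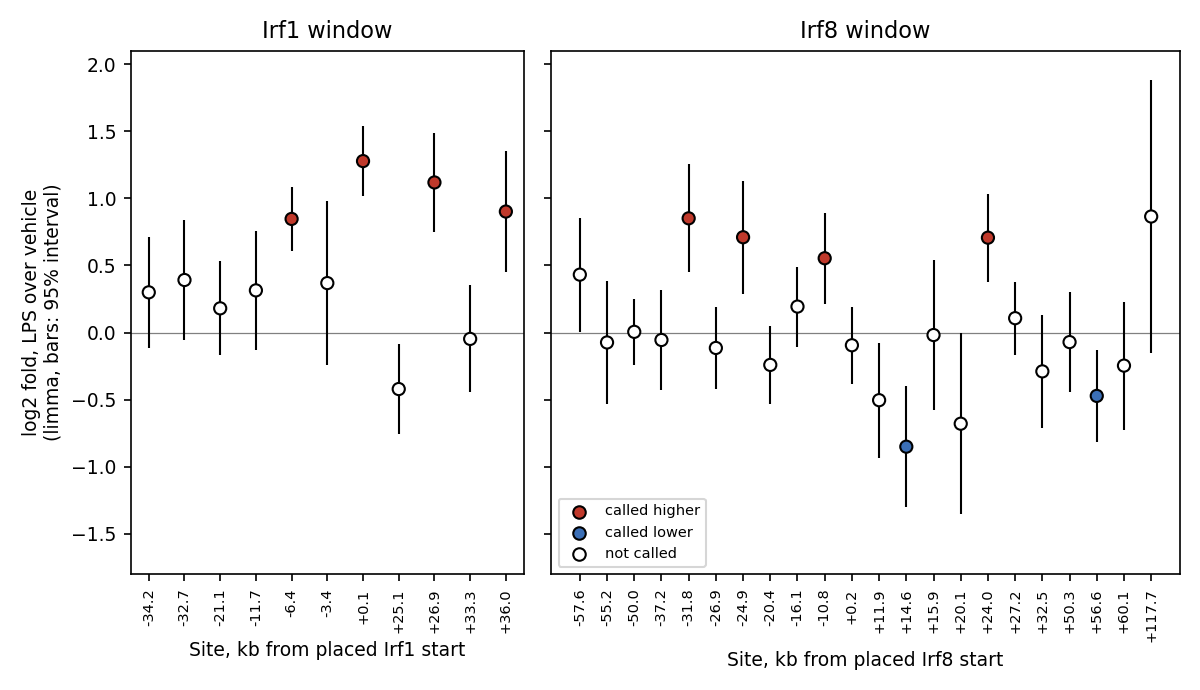
log2 fold of LPS over vehicle (y axis, limma on log2 of scaled value + 1) for each of the 33 sites, in order along the chromosome and named by kb from the placed start of Irf1 (left) or Irf8 (right). Bars are 95% intervals, red points were called higher, blue points lower and white points neither. The Irf1 start has the highest fold of all 33 (1.28), and the intervals of the Irf8 start and of the -50.0 kb site include 0.

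The calls rest on the scaling of the libraries. On the deposited values with no scaling, limma called 0 sites of either window, and 1.89% of all sites higher and 0.0482% lower. There the Irf1 start had a log2 fold of 1.34 (limma adjusted p = 0.0587, SE 0.41), so the fold was as large and its error larger. The medians of the deposited columns ran from 35.5 to 73.0, and vehicle replicate 3 was the highest. The authors' deposited table has an FDR under 0.05 for 0 of the 33 sites, while 4.01% of all its sites pass as higher and 0.37% as lower. The Irf1 start came nearest, with a log2 fold of 0.84 and an FDR of 0.0538 in the authors' deposited table. That fold is smaller than the gap between the authors' log2 mean signals for the site, 7.43 in vehicle and 8.65 in LPS. It is therefore not the same measure as the limma folds given here. For the Irf8 start the authors' deposited table gives a log2 fold of -0.02 and an FDR of 0.97.

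The pathway was taken from 4 lists by role, Irf1 and Irf8 included, with all sites within 50 kb of the placed gene start. Of 31 genes 27 could be placed, and they had 317 sites, of which 23.7% were called higher and 5.99% lower by limma, against 16.1% and 13.5% of all sites. The median log2 fold was 0.105. Without Irf1 and Irf8, the other 25 genes had 290 sites, with 22.8% higher, 6.21% lower and a median of 0.0947. Those not placed were Nfkb1, Tlr4, Cd14 and Ticam2. The lists were chosen with earlier results of these data known, and a site within 50 kb of a gene need not act on it. Counts of genes with any called site depend on how many sites a gene has: of 12012 protein-coding genes placed the same way with a site within 50 kb, 45.9% had a site called higher and 42.3% a site called lower. Those genes had a median of 6 sites each, against 12 for the other 25 list genes. Of 8290 such genes with a site within 1.5 kb of the start, 9.36% had that start site called higher and 4.4% lower.

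Of the 92 sites of the IRF family 20.7% were called higher and 5.43% lower, and 15.4% and 6.15% of the 65 sites of the other 6 genes, near the 16.1% of all sites for higher. A site called higher was present for 7 of 8 genes and one called lower for 4, against 45.9% and 42.3% of placed protein-coding genes. Irf2, which encodes a relative of Irf1 that binds the same elements, had neither. Start sites (within 1.5 kb) were present for 7 genes, and 2 of these were called higher, those of Irf1 and Irf7. Irf7, which drives type I interferon genes, had 127, 105 and 148 in vehicle and 171, 194 and 214 in LPS at its start, a log2 fold of 0.61 (limma adjusted p = 0.00135). Its groups did not overlap. The start of Irf9, the DNA-binding subunit of ISGF3, had 131, 114 and 174 in vehicle and 128, 168 and 222 in LPS and did not pass (limma adjusted p = 0.229). A site at -13.3 kb from Irf9 did, with 80.9, 84.3 and 139 in vehicle and 229, 268 and 332 in LPS (log2 fold 1.47, limma adjusted p = 2.46e-06). The starts of Irf2, Irf3 and Irf4 had log2 folds of 0.30, 0.11 and 0.05 and were not called. Away from starts, sites of Irf4 (at -46.8 kb) and Irf5 (at +31.2 kb) rose by log2 folds of 1.31 and 1.63, and a site of Irf3 (at -23.1 kb) fell by 0.72 (limma adjusted p = 1.98e-06, 9.39e-06 and 0.00949). These are the sites with the smallest adjusted p, and all of these genes also had a site called the other way. For Irf4 and Irf5 such a site was called lower, and for Irf3 higher, so no direction holds for the gene.

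**Figure D4:**
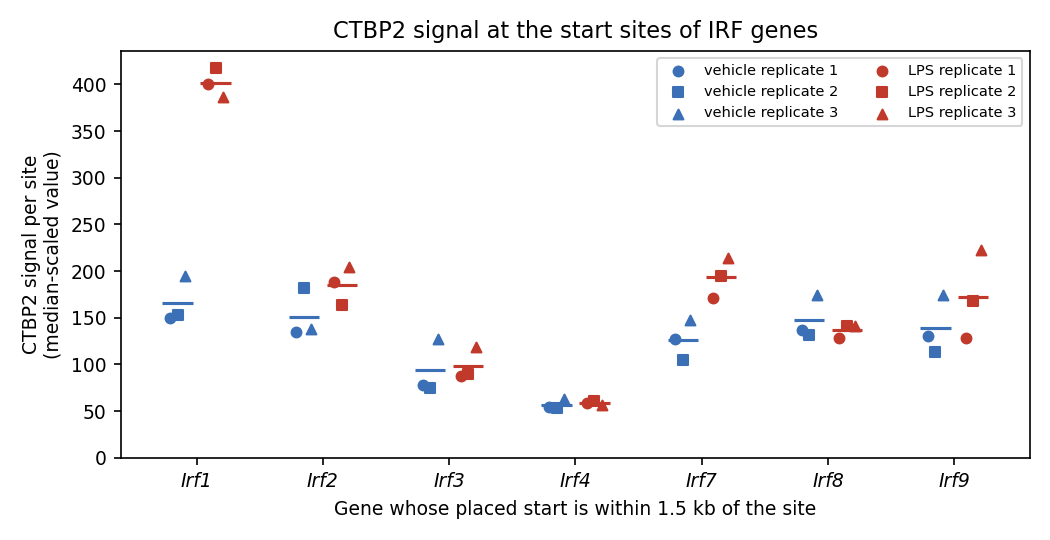
Median-scaled CTBP2 signal (y axis, from 0) at the site within 1.5 kb of the placed start of each IRF gene that has one (x axis). Points are the 3 vehicle (blue) and 3 LPS (red) libraries and bars are group means. In vehicle the Irf1 and Irf8 starts have like means (166 and 147), and in LPS the Irf1 start stands at 402, above all other IRF starts.

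Among DNA-binding partners of IRF proteins, 30% of 90 sites were called higher and 4.44% lower, against 16.1% and 13.5% of all sites. Of 6 start sites 5 were higher, against 9.36% of the start sites of placed protein-coding genes. Each of the 7 placed genes had a site called higher and 3 had one called lower. Over placed protein-coding genes with a site, which had fewer sites each, these shares were 45.9% and 42.3%. Batf2, an AP-1 family gene induced by interferon, had 47.6, 42.6 and 70.05 in vehicle and 117, 121 and 120.1 in LPS at its start (log2 fold 1.18, limma adjusted p = 2.78e-06). Its groups did not overlap there. The starts of Batf, Stat2, Rela and Cebpb rose by 0.68, 0.66, 0.38 and 0.37 on the log2 scale, and that of Batf3 was not called (0.10). At the Stat2 start the groups overlapped, with 82.1, 67.4 and 131.3 in vehicle and 130.5, 130.4 and 169.8 in LPS. The Rela site with the smallest adjusted p, at +23.8 kb, fell by 0.69 on the log2 scale (limma adjusted p = 0.000607). Cebpb and Batf3 also had sites called lower. A site of Batf at -20.1 kb rose most, from 13.1, 17.8 and 12.5 to 120.3, 116 and 107 (log2 fold 2.92, limma adjusted p = 6.57e-13). Spi1, which encodes PU.1, had no site at its placed start, and its site at +14.3 kb rose by 0.67 (limma adjusted p = 0.000407).

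Of the 81 sites of the interferon receptors and their kinases 23.5% were called higher and 8.64% lower, against 16.1% and 13.5% of all sites. A site called higher was present for 6 of 7 genes and one called lower for 4, against 45.9% and 42.3% of placed protein-coding genes. Of 7 start sites 2 were higher, those of Ifngr2 (log2 fold 0.74, limma adjusted p = 0.000314), a chain of the interferon gamma receptor, and Tyk2 (0.60, limma adjusted p = 0.0288). The starts of Ifnar1, Ifnar2, Ifngr1 and Jak1 had log2 folds from 0.09 to 0.37, and that of Jak2 had 0.78 with widely spread replicates; none was called. A site at -4.52 kb from Tyk2 went from 32.1, 43.5 and 33.8 to 266, 275 and 267 (log2 fold 2.86, limma adjusted p = 2.86e-15). For the genes that lead from the LPS receptor to IRF proteins, 18.5% of 54 sites were called higher, near the 16.1% of all sites, and 5.56% lower. Each of the 5 placed genes had a site called higher and 2 had one called lower, and 1 of 4 start sites was higher. This was the start of Tbk1, the kinase that activates Irf3, with 89.2, 66.5 and 125 in vehicle and 205, 198 and 259.9 in LPS (log2 fold 1.27, limma adjusted p = 7.42e-06). A site of Tbk1 at -4.44 kb fell from 158, 156 and 159 to 67.0, 66.5 and 73.2, by 1.19 on the log2 scale (limma adjusted p = 1.2e-07). The Tbk1 start and the Irf1 start thus had like log2 folds.

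**Figure D5:**
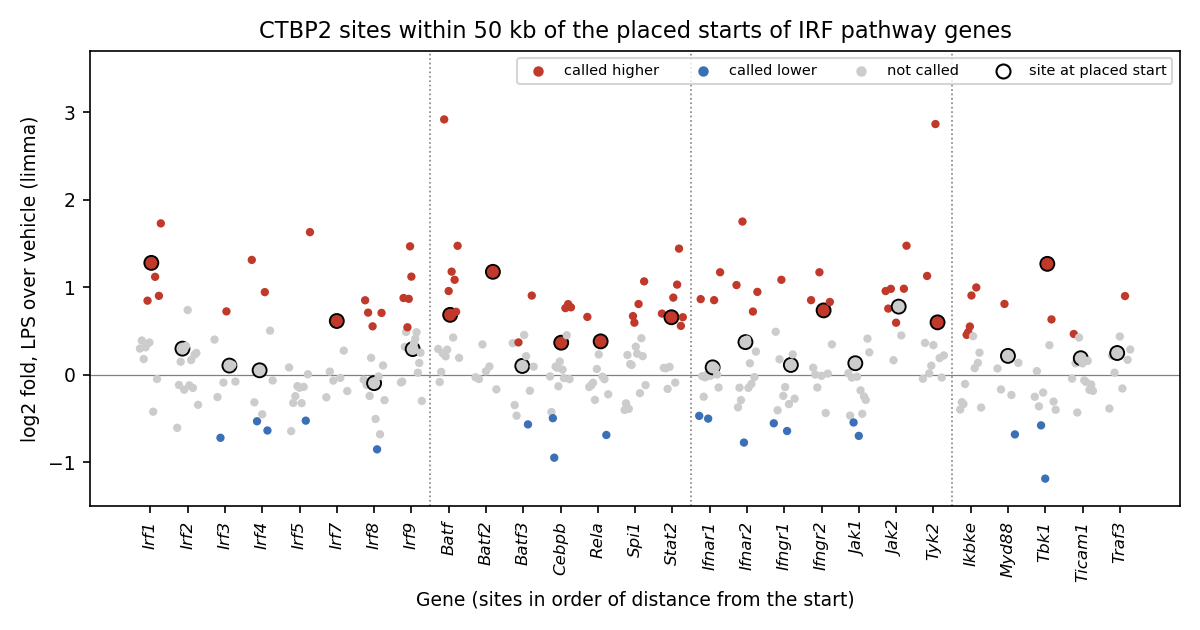
log2 fold of LPS over vehicle (y axis, limma) for every site within 50 kb of the placed start of the 27 placed genes (x axis, lists separated by dotted lines). Red points were called higher, blue lower and grey neither, and larger outlined points are sites at a gene start. The start of Irf1 is among the higher start sites (1.28), beside those of Tbk1 (1.27) and Batf2 (1.18), and the start of Irf8 lies near 0 (-0.09).

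The sites most like the lead sites across the 6 libraries were found by Euclidean distance in log2(scaled value + 1), as a description over 6 libraries that share the LPS contrast. For the Irf1 start these were a site at +19.0 kb from Batf (distance 0.406; 149, 153 and 186 in vehicle and 321, 368 and 345 in LPS), one nearest to Tspyl3 (+26.7 kb, distance 0.466) and one nearest to Lta (-14.7 kb, distance 0.522). For the Irf8 site at +24.0 kb they were the start of Rap2c (-0.072 kb, distance 0.16; 60.7, 66.5 and 57.5 in vehicle and 117, 109 and 94.8 in LPS) and sites nearest to Gm52787 and Cyth2 (distances 0.207 and 0.231).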

How the data were processed

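The members and lists were chosen with earlier results of these data known. One deposited table holds 62236 sites (61976 of them 1001 bp wide) with a normalised signal per site and library; the labels and headers do not say how the authors normalised it. The authors' log2 fold, p-value and FDR of LPS over vehicle are in the same table, per the file headers. DiffBind 3.16 with R 4.4.1, MACS3 3.0.0a5, the aligner BWA 0.7.17, deepTools 3.5.1 and SAMtools 1.9 are among the tools, and mm39, GRCm39 and mm10 the builds, named per the submitters' processing notes. Per the labels' protocols, chromatin was sheared to 500 to 1000 bp, which limits how finely neighbouring sites can be told apart. No source used here says if peak calling pooled the replicates.

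Each column was divided by its median and multiplied by the mean of the 6 medians (48.8). The test used R 4.3.3 and limma 3.58.1, with a mean trend and robust variance, on log2(value + 1), with 6 libraries and no covariates, adjusted by Benjamini-Hochberg over all sites. Folds on this scale understate changes at low sites. Permutation tests used scipy 1.17.1 in Python 3.11.15. The fit was tested on simulated data with the same spread at every site and no library effect. That test therefore cannot show how the scaling of libraries affects the calls. Every column has a step of which its values, up to 300 steps, are whole multiples within a tolerance of 0.1 step. If a step is 1 read, libraries held 3243258 to 4553177 reads in sites, and the Irf1 and Irf8 start sites 126 and 115 reads or more in vehicle libraries.

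Gene starts (RefSeq, GRCm38.p6) were placed by the shift, within 1200 kb in steps of 50 bp, that put most gene starts within 1.5 Mb, the gene itself left out, no more than 500 bp from a site centre; at least 6 genes and 1.25 times the next best shift were required, limits set after the data were seen. The same rule placed 13991 of 21887 protein-coding genes, a background added after the data were seen. Of the 27 placed list genes 21 had a site within 500 bp of the start. Of 8233 gene names the authors give, 8055 matched RefSeq, and for 83.5% of these the gene limits differed by no more than 100 bp at one end. By rule, the 8 sites per window with the smallest adjusted p and the start sites are given in full, and for each list gene 1 site besides its start may be named. Items of the lists that are not reported here were left out of all list counts.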

Additional observations from a re-analysis of the deposited data

How the results depend on the processing

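Of the 10 called members, 10 lost their call on the deposited values with no scaling, where folds kept their direction and similar size but had larger errors (Irf1 -6.38 kb: log2 fold 0.91, SE 0.389, against 0.85, SE 0.116). There limma called 1178 sites of the genome higher and 30 lower (97.5% of calls higher, against 54.4% of 10033 higher and 8408 lower after median scaling), 0 and 0 in the Irf1 and 0 and 0 in the Irf8 window, and 6 and 0 pathway genes had a higher and a lower site, against 25 and 13. In the other 14 settings the 4 Irf1 calls and the Irf8 calls at -31.8, +14.6 and +24.0 kb were kept, 7 of 10. The size of the adjusted p depended on the setting. At the Irf1 start it ran from 5.87e-28 (limma with the replicate block) to 0.000321 (limma without trend and robust options). At -6.38 kb the same settings gave 1.19e-14 and 0.00289. The -6.38 kb log2 fold ran from 0.599, by quantile normalisation, to 0.921, without vehicle replicate 3. The Irf1 window gained 1 lower site, that at +25.1 kb, by quantile normalisation, scaling by the column sum, a pseudocount of 5, a mean scaled value of at least 30 and the replicate block. The Irf8 site at +11.9 kb was called lower by quantile normalisation (limma adjusted p = 0.0471) and with the replicate block (0.0394). At an adjusted p under 0.01, 4699 sites were lower, the Irf8 window had 1 lower site and 8 pathway genes had a lower site. Within 10 kb of the start, 14 pathway genes had a higher and 6 a lower site. Without 1 library, higher sites over the genome numbered 7691 to 10081 and lower ones 6031 to 7912; lower sites numbered 0 to 1 in the Irf1 window (1 without vehicle replicate 3) and 1 to 2 in the Irf8 window, where leaving out any library but vehicle replicate 1 gave 1.

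The sign of near-zero values turned, none of them called: the Irf8 -50.0 kb site had log2 folds of -0.125 by quantile normalisation and -0.021 scaled by the column sum. Without 1 library it had -0.0463 to 0.056, negative without vehicle replicate 1, vehicle replicate 2 or LPS replicate 1. The Irf8 start had -0.172 to 0.0296, positive without vehicle replicate 3.

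Replicate numbers are shared between groups. Deviations of same-numbered libraries correlated at 0.111, 0.0384 and 0.214, and those of differently numbered libraries at -0.205 to 0.148. Vehicle replicates 1 and 3 correlated best with the LPS library of their own number, and vehicle replicate 2 with LPS replicate 1 (0.148). The labels do not say that a number marks a shared animal or day, so the main fit used no pairs. Whether the numbers mark pairs was not settled. With the replicate block 11691 sites were higher and 10397 lower, with 4 and 1 in the Irf1 and 5 and 3 in the Irf8 window. The planned count-model alternatives were not run, and the steps in the columns were used to describe depth only.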
